A study of Mus musculus with 24 samples.

Results

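The plasma miRNA of 8 mice that had inhaled particles rich in environmentally persistent free radicals (EPFR) was set against that of 8 mice that had inhaled filtered air. The members were chosen by exposure label alone, as the 16 mice labelled EPFR or filtered air among the 24 mice of the series, and all 566 mouse miRNA probes of the 626 probes on the panel were followed. All were male C57BL/6J mice, an inbred strain, 20 weeks old by the labels, and were exposed for 4 h/d on 5 days. The EPFR group breathed a particle mass that the labels give as 250 µg per cubic meter and the study's methods give as somewhat higher. The particles were made by burning organic fuel with a chlorinated phenol over iron oxide, so the EPFR mice received particles, metal oxide and radicals together. The other 8 mice, labelled EPFR lo, breathed the same particle mass with fewer radicals and enter here as a part of the shared error estimate and as a side comparison. Each mouse was 1 sample, RNA came from 200 µL of plasma, and about 10 ng was assayed without pooling.

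miRNA are short RNA that guide silencing proteins to messenger RNA, mainly through the seed, bases 2 to 8 from the 5′ end. In plasma they travel inside vesicles and bound to proteins or lipoproteins, and they come from many cells. Red blood cells, platelets and leukocytes supply most of them, and a smaller part comes from solid organs such as liver, muscle, lung and vessel wall. Some miRNA are nearly confined to 1 tissue, among them miR-122 in liver, miR-1 and miR-133a in striated muscle and miR-451 in red blood cells, and these are commonly read as markers of origin. In plasma, a larger number of releasing cells and more miRNA released per cell cannot be told apart.

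The sequences below are those the results turn on: 3 of the miRNA that rose, each beside the near relative on the panel that it is compared with, and the miRNA that make up most of the red blood cell signal. They are the mature forms of RefSeq for GRCm38.p6, with the seed in capitals, and 48 of the 53 panel names looked up were matched.
let-7i: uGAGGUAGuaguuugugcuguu
let-7g: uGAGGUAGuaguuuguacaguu
let-7f: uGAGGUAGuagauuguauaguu
miR-376a: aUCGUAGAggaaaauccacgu
miR-376b: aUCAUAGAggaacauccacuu
miR-142-3p: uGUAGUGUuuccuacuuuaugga
miR-142-5p: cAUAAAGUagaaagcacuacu
miR-16: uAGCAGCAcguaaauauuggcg
miR-15a: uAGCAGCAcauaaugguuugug
miR-451: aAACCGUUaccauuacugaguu
miR-144: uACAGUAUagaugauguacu
let-7i lies at chr10:122985698-122985719 on the minus strand, outside any annotated gene, and shares its seed with let-7g and let-7f, from which it differs at 2 and 4 of 22 bases. miR-376a lies at chr12:109723824-109723844 on the plus strand and miR-376b at chr12:109723508-109723528, both in the imprinted Dlk1-Dio3 cluster, and they differ at 3 of 21 bases and in their seeds. miR-142-3p and miR-142-5p are the 2 arms of 1 hairpin, at chr11:87756903-87756925 and chr11:87756867-87756887, and their seeds are unrelated. miR-16 is encoded at chr3:69009918-69009939, inside Smc4, and at chr14:61631936-61631957, inside Dleu2, and shares its seed with miR-15a, which is also made from Dleu2. miR-451 and miR-144 lie side by side at chr11:78073186-78073207 and chr11:78073047-78073066.

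The assay joins a DNA tag to each miRNA and counts single color-coded probes without amplification. Summed over the 566 miRNA, a filtered air mouse gave 8665 to 18568 counts (median 10915) and an EPFR mouse 8418 to 22152 (median 14183.5), and the totals did not differ beyond the spread between mice (exact permutation p = 0.491). Most probes read at background: the negative controls of the 16 mice had a mean of 16.9 counts (SD 8.55), and a probe is called above background here where its mean count in these mice exceeded 34.0, that mean plus 2 SD, which 38 of 566 did. Counts were scaled between mice by the positive controls and 4 housekeeping probes, which themselves read near the negative controls (geometric mean per mouse 9.01 to 17.1, against 10.3 to 19.7), and a scaled count below is the raw count times that factor with no background removed. The positive controls for ligation, synthetic RNA that report on the tagging step, stood apart between the groups. They read 353 to 3988 in filtered air (median 2172) and 2528 to 7251 in EPFR (median 5442), a 2.59-fold difference (exact permutation p = 0.00373, 0.0373 after adjustment over 10 sample measures), and 8 of 8 EPFR mice exceeded the median of filtered air. The study states that samples ran in several batches without saying which mouse was in which, so values are also given within replicates 1 to 4 and within replicates 5 to 8. This split is by replicate number alone, no source names it as a batch, and although the positive controls were on the whole lower in replicates 1 to 4 (geometric mean 1204 to 1466 in filtered air and 1135 to 1387 in EPFR) than in 5 to 8 (1535 to 1779 and 1310 to 1585), they overlapped in EPFR.

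In mice exposed to EPFR, 4 miRNA rose in plasma and none fell at an adjusted p under 0.05 (edgeR quasi-likelihood test over all 24 mice, Benjamini-Hochberg over 566 miRNA). The 4 are miR-376a, of the Dlk1-Dio3 cluster, miR-1, of heart and skeletal muscle, miR-142-3p, of leukocytes and other blood cells, and let-7i, of the widely expressed let-7 family. They make up 0.707% of the 566 tested, and all 4 are above background by the mean over the 16 mice. That limit uses the EPFR counts too: miR-1 and miR-142-3p, with mean raw counts of 20.5 and 30.4 in filtered air, lie under 34.0 in those mice alone. At an unadjusted p under 0.05, 29 miRNA (5.12%) passed, of which 22 (3.89%) were higher and 7 (1.24%) lower. That split depended on the scaling between mice: it was 38 and 19 with TMM, 33 and 18 with the positive controls alone, and 17 and 123 with the 100 most abundant miRNA, which also moved the median of all 566 from -0.09 to -0.30. By the exact permutation test over mice, which does not use a count model, 12 miRNA (2.12%) had an unadjusted p under 0.05 and 0 after adjustment, and no miRNA of the 566 had groups that did not overlap.

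miR-376a had scaled counts of 26.2 to 65.6 in filtered air (median 38.9) and 31.9 to 546 in EPFR (median 65.7). EPFR mice 6, 7 and 8, at 404, 348 and 546, lay far above the other mice, EPFR mice 1 to 4 lay inside the filtered air range, and mouse 5 was at 79.0. The log2 fold change was 2.19 (SE 0.40, edgeR adjusted p = 2.66e-05, exact permutation p = 0.0281). It kept an adjusted p under 0.05 without any 1 of the 24 mice, with log2 fold changes of 1.76 to 2.35, but not with the ligation level of each mouse as a covariate, which gave 0.81 (adjusted p = 0.994, edgeR). The high values lay in EPFR mice 6 to 8: the log2 fold change was 0.38 in replicates 1 to 4 and 2.78 in replicates 5 to 8, although that difference had an adjusted p of 0.315.

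miR-1 had scaled counts of 8.43 to 31.8 in filtered air (median 21.1) and 8.69 to 421 in EPFR (median 29.5). EPFR mouse 3 alone stood at 421, mice 4 and 7 reached 50.4 and 75.1, and the other 5 EPFR mice lay inside the filtered air range. The log2 fold change was 1.98 (SE 0.36, edgeR adjusted p = 2.66e-05), but the exact permutation p was 0.0867, and without EPFR mouse 3 the log2 fold change was 0.72 with an adjusted p of 0.994. The edgeR call for miR-1 therefore rests on 1 mouse. DESeq2 was run with its default settings, which can replace counts marked as outliers in groups of this size. It gave miR-1 a log2 fold change of 0.74, close to the 0.72 without EPFR mouse 3. Its adjusted p was 0.0311, adjusted over fewer than the 566 miRNA. Whether the count of EPFR mouse 3 was replaced was not examined, so this value cannot be read as separate support from all mice.

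miR-142-3p had scaled counts of 15.1 to 72.2 in filtered air (median 28.8) and 10.1 to 258 in EPFR (median 105.9). EPFR mice 3, 4, 6, 7 and 8 lay above every filtered air mouse, while EPFR mice 1, 2 and 5 lay inside or below their range. The log2 fold change was 1.69 (SE 0.38, edgeR adjusted p = 0.00181, exact permutation p = 0.0597), with 1.33 in replicates 1 to 4 and 1.88 in replicates 5 to 8. Leaving out EPFR mouse 8 gave an adjusted p of 0.0641.

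let-7i followed the same mice, with scaled counts of 20.5 to 87.4 in filtered air (median 29.9) and 17.4 to 183 in EPFR (median 108.5). EPFR mice 3, 4, 6, 7 and 8 again lay above every filtered air mouse, and mice 1, 2 and 5 did not. The log2 fold change was 1.33 (SE 0.36, edgeR adjusted p = 0.0379, exact permutation p = 0.0448), with 1.10 in replicates 1 to 4 and 1.48 in replicates 5 to 8. This call was lost without any 1 of 12 of the 24 mice, with an adjusted p of up to 0.185.

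**Figure D1:**
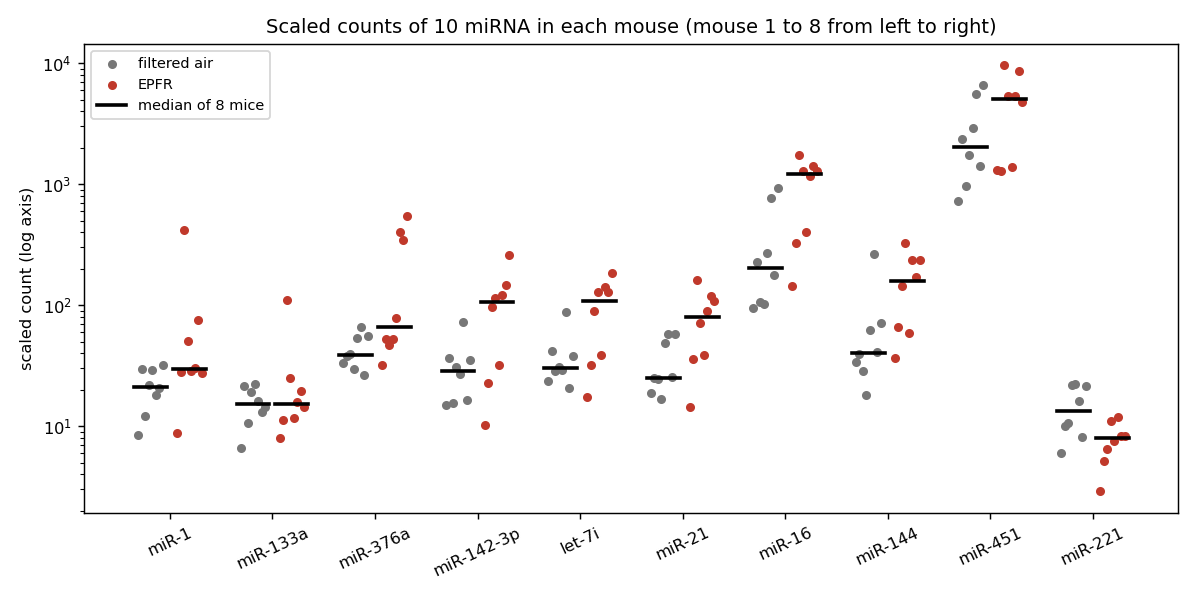
Scaled counts (log axis) of 10 miRNA in each of the 8 filtered air mice (grey) and 8 EPFR mice (red), plotted from mouse 1 on the left to mouse 8 on the right within each group, with a line at the median. The groups overlap for every miRNA shown, miR-1 and miR-133a have 1 EPFR mouse (mouse 3) far above the rest, and EPFR mice 1, 2 and 5 sit low for miR-142-3p, let-7i, miR-16 and miR-144.

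**Figure D2:**
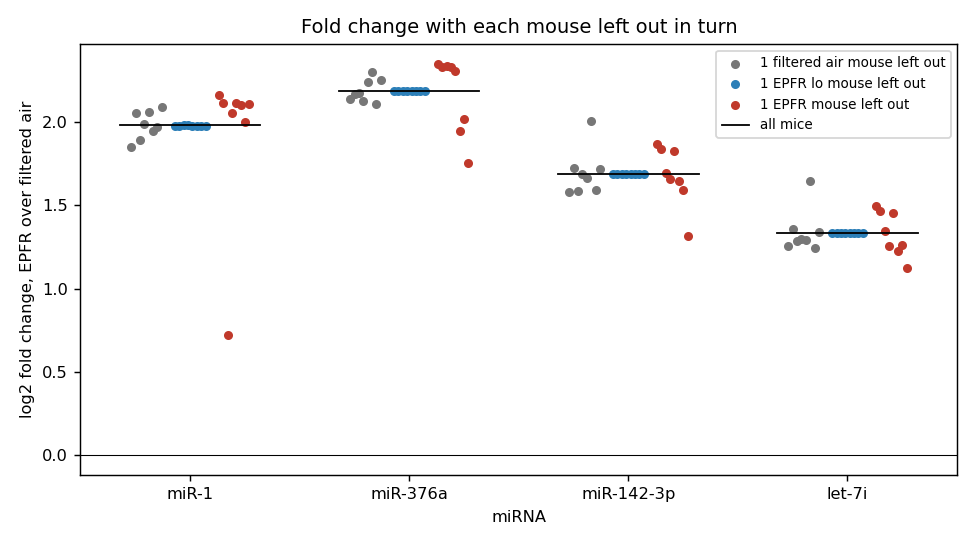
Log2 fold change of EPFR over filtered air for the 4 miRNA that rose, refitted with 1 of the 24 mice left out at a time (points, colored by the group of the mouse left out) beside the value with all mice (line). miR-1 drops to 0.72 without EPFR mouse 3, and miR-376a stays between 1.76 and 2.35.

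Seen by abundance, the higher values lay among the miRNA that were readable above background. The 6 most abundant miRNA, with a mean count above 102 in the 16 mice (3 times the limit), had a median log2 fold change of 0.85 with 6 of 6 positive, and the 32 between 34.0 and 102 had a median of 0.55 with 24 of 32 positive. The 122 from 16.9 to 34.0 had a median of -0.06 and 38.5% positive, and the 406 at or under the mean of the negative controls had -0.12 and 32.8% positive. Over all 566 the median was -0.09 and 37.1% were positive. Of the 38 above background, 16 were higher and 0 lower at an unadjusted p under 0.05, whereas the 528 others held 6 higher and 7 lower.

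Those classes use the counts of the EPFR mice themselves, so a miRNA that was high in EPFR could enter the upper class through that. Classes set on the EPFR lo mice alone use neither group. Those mice breathed particles too, so a miRNA high in both particle groups could still enter the upper class through them. The 44 miRNA above the limit there had a median log2 fold change of 0.54, against -0.11 for the other 522, with 17 higher and 0 lower at an unadjusted p under 0.05. Set on the filtered air mice alone, the classes gave 0.46 for 36 miRNA and -0.10 for the other 530. The order of the classes was thus the same whichever mice set them. The ligation positive controls, which were 2.59-fold higher in EPFR, moved with this contrast: with each mouse's ligation level as a covariate the difference between the 2 classes was 0.26 in place of 0.74, and 0 miRNA passed an adjusted p of 0.05 by edgeR (11 at an unadjusted p under 0.05). In that fit miR-1 had a log2 fold change of 1.76 (adjusted p = 0.0734), while let-7i had 0.93, miR-142-3p 0.90 and miR-376a 0.81 (adjusted p = 0.994 each).

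Probes with no mouse target moved the other way. On the same scale, the 33 viral miRNA probes had a median log2 ratio of EPFR over filtered air of -0.20 and 27 of 33 were negative, and the 8 negative controls had a median of -0.11 with 7 of 8 negative. The 528 mouse miRNA at or under the limit had -0.11, close to these control probes. With scaling to the positive controls only, the values were -0.11, -0.04 and -0.06, and the 38 above the limit had 0.60. Background readings were thus somewhat lower in EPFR mice, although the raw negative controls did not differ beyond the spread (geometric mean 10.5 to 19.7 in filtered air and 10.3 to 16.3 in EPFR, exact permutation p = 0.0650).

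**Figure D3:**
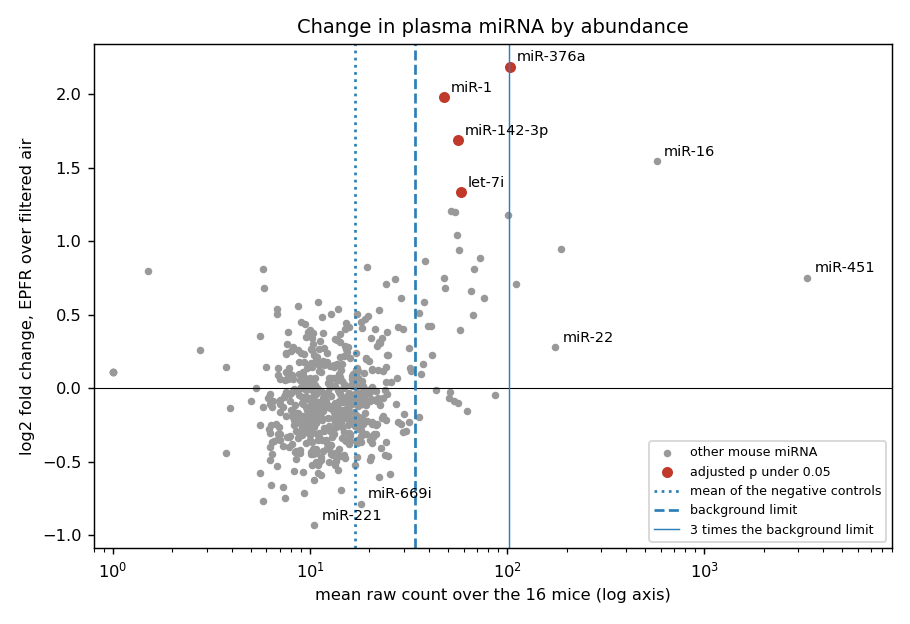
Log2 fold change of EPFR over filtered air (vertical axis) against the mean raw count over the 16 mice (log axis) for the 566 mouse miRNA, with the 4 that rose in red and lines at the mean of the negative controls, at the background limit and at 3 times that limit. To the left of the limit the points scatter around a median of -0.10, and to its right 30 of 38 are above 0.

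The make-up of the count shifted in the same sense. The 38 miRNA above background held 29.3% to 53.6% of a filtered air mouse's counts (median 32.2%) and 35.8% to 66.6% of an EPFR mouse's (median 52.6%). miR-451 alone held 12.1% to 34.9% (median 15.4%) in filtered air and 14.8% to 39.8% (median 25.7%) in EPFR. The groups overlapped, with filtered air mice 6 and 8 above EPFR mice 1, 2, 4, 5 and 6 in both shares. The 30 above-background miRNA outside the red blood cell list had a median share of 11.8% in filtered air and 14.2% in EPFR.

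**Figure D4:**
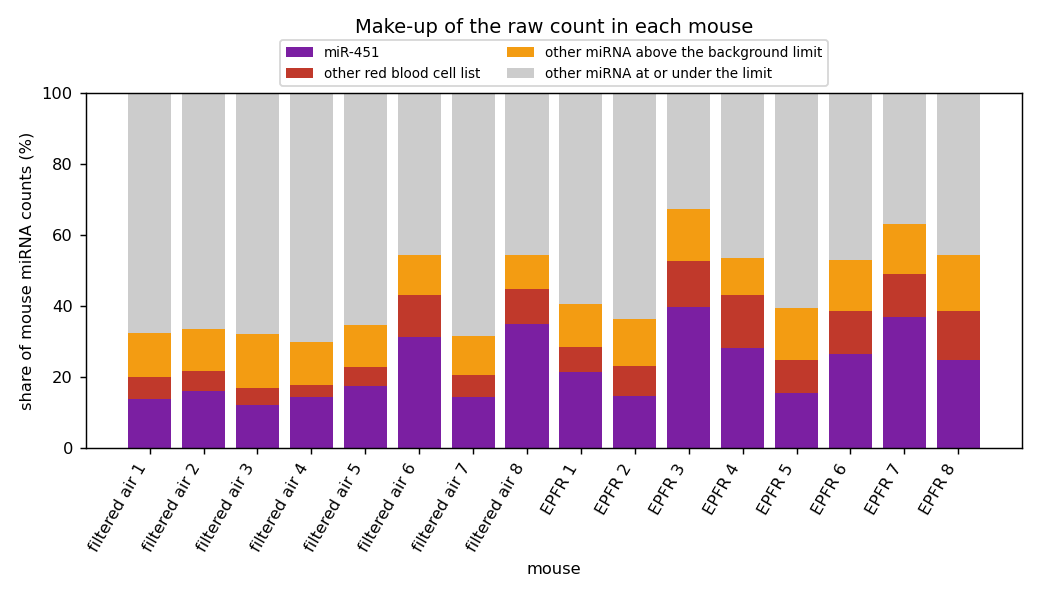
Share of the raw mouse miRNA count of each mouse (vertical axis, percent) held by miR-451, by the other 12 miRNA of the red blood cell list, by the other 30 miRNA above background and by the other 523 at or under it. In 6 of the 8 filtered air mice the last class holds most of the count, as it does in EPFR mice 1, 2 and 5.

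By tissue of origin, the red blood cell list had the highest median of the 14 lists. Of 13 red blood cell miRNA, 12 had a positive log2 fold change, the median was 0.75 against -0.09 over all 566, and 6 were higher and 0 lower at an unadjusted p under 0.05 (3.89% and 1.24% of all 566). None passed the adjusted threshold here, but some did in other fits: miR-16 with DESeq2 (adjusted p = 0.0252), with top 100 scaling (0.0468), among above-background miRNA only (0.0488) and without filtered air mouse 8 (0.0407). The DESeq2 and above-background values are adjusted over fewer miRNA than the 566. Without filtered air mouse 6, miR-144, miR-15a and miR-16 passed (0.000459, 0.0264 and 0.0415, edgeR), and with replicates 1 to 4 and 5 to 8 as a block miR-144 and miR-16 did (0.0321 and 0.0350). The list's median moves with abundance, as 8 of the 13 are above background: these 8 had a median of 0.85, against 0.64 for all 38 miRNA above background. With the ligation level as a covariate the list's median stood 0.17 above that of all miRNA, in place of 0.83, and was below the platelet (0.27) and muscle (0.20) lists. The excess was 1.34 in replicates 1 to 4 and 0.37 in replicates 5 to 8, where the let-7 family had 0.38.

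miR-16, an abundant miRNA of blood cells, had scaled counts of 94.0 to 923 in filtered air (median 202) and 143 to 1748 in EPFR (median 1221). EPFR mice 3, 4, 6, 7 and 8 lay above the highest filtered air mouse, with a log2 fold change of 1.54 (SE 0.52, edgeR adjusted p = 0.236, exact permutation p = 0.0250). miR-144, made from the same locus as miR-451, went from 17.9 to 266 (median 40.4) in filtered air to 36.2 to 328 (median 158) in EPFR. Filtered air mouse 6 held the 266, and the log2 fold change of miR-144 was 1.18 (SE 0.40, edgeR adjusted p = 0.236, exact permutation p = 0.0373).

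miR-451, which had the highest count in both groups, had scaled counts of 728 to 6609 in filtered air (median 2039) and 1295 to 9589 in EPFR (median 5053). Its log2 fold change of 0.75 (SE 0.72, edgeR adjusted p = 0.991, exact permutation p = 0.223) was about as large as its standard error. The other abundant members, miR-25, miR-15a, miR-15b and miR-486, had log2 fold changes of 0.94, 0.89, 0.81 and 0.71, with edgeR adjusted p of 0.636 to 0.991. Log2 fold changes of these red blood cell miRNA were higher in replicates 1 to 4: miR-16 had 2.74 in replicates 1 to 4 and 1.00 in replicates 5 to 8, miR-144 had 2.25 and 0.67, and miR-451 had 1.60 and 0.28, although the difference between the 2 replicate sets passed an adjusted p of 0.05 for 0 of 566 miRNA (12 at an unadjusted p under 0.05, 2.12%). By the study's methods, hemolyzed plasma was left out. The ratio of miR-451 to miR-23a, a widely used index of red blood cell breakage in plasma, was 26.5 to 104 in filtered air (median 53.1) and 25.3 to 121 in EPFR (median 53.7), with a log2 difference of -0.05 (SE 0.34, exact permutation p = 0.884). The log2 difference of this ratio was 0.49 in replicates 1 to 4 and -0.59 in replicates 5 to 8, so the value over all mice joins 2 opposite shifts. Since miR-23a itself had a log2 fold change of 0.94 (SE 0.37, edgeR adjusted p = 0.46), both parts of this ratio had higher values.

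The other blood cell lists were mixed. Of 8 platelet miRNA 7 had a positive value (37.1% of all 566), with a median of 0.28 and 1 higher at an unadjusted p under 0.05 (3.89% of all 566). The median stood 0.36 above that of all miRNA, 0.20 above it without EPFR mouse 3, and -0.03 from it when only above-background members were set against all above-background miRNA. That one was miR-21, a miRNA of platelets and many other cells, transcribed from within Vmp1. Its scaled counts were 16.7 to 58.0 in filtered air (median 25.1) and 14.5 to 160 in EPFR (median 79.7), with 5 EPFR mice above every filtered air mouse and a log2 fold change of 1.20 (SE 0.36, edgeR adjusted p = 0.0868, exact permutation p = 0.0474). miR-223, of platelets and myeloid cells and in both lists, had 0.61 (adjusted p = 0.991, edgeR), and miR-22, among the 4 most abundant miRNA in both groups, had 0.28.

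Of 9 leukocyte miRNA, 1 rose (0.707% of all 566), 7 had a positive value (37.1% of all 566) and the median of the list was 0.12. The one that rose was miR-142-3p, while miR-142-5p, the other arm of its hairpin, had a log2 fold change of -0.05 (SE 0.37) with scaled counts of 46.4 to 127 in filtered air (median 94.1) and 51.1 to 126 in EPFR (median 89.3). The values of this arm overlapped throughout. miR-150, of lymphocytes, had 0.67 (adjusted p = 0.991, edgeR). miR-155, induced in activated leukocytes, read 1 raw count in each of the 24 mice, as did let-7a, miR-34c and miR-543, so it gives no measurement. It is among the 7 of this list with a positive value, which comes from the scaling alone.

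Among the solid organs, single miRNA rather than whole lists stood out. In the heart and skeletal muscle list of 7, miR-1 rose and miR-133a, its usual partner, had 0.83 (SE 0.32, edgeR adjusted p = 0.46), while the other 5, among them the heart-restricted miR-208a and miR-208b and the skeletal-muscle miR-206, had -0.40 to 0.17. miR-133a read 6.63 to 22.1 in filtered air (median 15.3) and 7.97 to 25.2 in the EPFR mice other than mouse 3 (median of all 8, 15.1). EPFR mouse 3 alone stood at 109.8, the same mouse that was high in miR-1, and without it the log2 fold change of miR-133a was -0.04.

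In the liver list of 5, miR-148a, also made outside the liver, had scaled counts of 7.83 to 59.7 in filtered air (median 46.4) and 23.9 to 217 in EPFR (median 55.0). Of the EPFR mice, 4 lay above every filtered air mouse and the other 4 did not exceed the median of filtered air, with a log2 fold change of 1.04 (SE 0.37, edgeR adjusted p = 0.321, exact permutation p = 0.120). miR-122, the liver-specific member, had 0.29 (SE 0.34) with scaled counts of 4.22 to 40.8 in filtered air and 9.45 to 71.8 in EPFR. EPFR mouse 3 held the 71.8, and without it the log2 fold change of miR-122 was -0.15. In the vascular wall list of 6, the endothelial miR-126-3p had -0.06 and the median was 0.03.

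The remaining tissue lists had medians near that of all miRNA. The lung and airway epithelium list, which includes the miR-200 and miR-34/449 families, had 0 of 12 above background and a median of -0.03. It had 0 members past an unadjusted p of 0.05 (5.12% of all 566), too short a list for that share to show a difference. Its highest value was that of miR-200b, at 0.38 (edgeR adjusted p = 0.991). The pancreas, neural, sensory, testis and embryonic stem cell lists had medians of -0.17, -0.16, -0.23, -0.16 and -0.12, with 0 of their 52 members above background and 0 past an unadjusted p of 0.05 (5.12% of all 566). These counts hold mostly background, so a change in them would be understated.

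The Dlk1-Dio3 cluster, a run of imprinted miRNA genes on chromosome 12 that is active in embryo, placenta, brain and muscle, split into single members. Of its 58 probes 3 are above background, 16 had a positive log2 fold change and the median was -0.09, equal to that of all miRNA. The 16 include miR-543, which gave no measurement. miR-376a rose and miR-136 had 0.87 (SE 0.34, edgeR adjusted p = 0.46), and 7 of 8 EPFR mice exceeded the median of filtered air. miR-127, miR-665 and miR-337-5p had -0.75, -0.71 and -0.61 (unadjusted p of 0.0393, 0.0443 and 0.0480, edgeR adjusted p of 0.928 to 0.962), all at or under background. miR-376b, the neighbor of miR-376a, had -0.10.

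The let-7 family, which holds back growth genes in most differentiated cells, was split too. Of the 9 members with the seed GAGGUAG, let-7a gave no measurement, and 6 of the other 8 had a positive value (37.1% of all 566) with a median of 0.41. With all 9, the median stood 0.49 above that of all miRNA, 0.22 without EPFR mouse 3, 0.11 with the ligation level as a covariate, and -0.24 among above-background members against all above-background miRNA. let-7i rose and let-7b had 0.71 (edgeR adjusted p = 0.72), whereas let-7f had -0.16 and miR-98 had -0.69 (unadjusted p = 0.0358, edgeR adjusted p = 0.882).

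The 388 miRNA in none of the lists had a median of -0.11, with 14 above background, 7 higher and 2 lower at an unadjusted p under 0.05 (3.89% and 1.24% of all 566), and 0 past the adjusted threshold. miR-125b-5p, an miRNA of many stromal and muscle cells, had the smallest p of those, with scaled counts of 18.6 to 50.2 in filtered air (median 36.2) and 18.8 to 301 in EPFR (median 47.7). EPFR mouse 3 was again the mouse far above the rest. The log2 fold change was 1.20 (SE 0.36, edgeR adjusted p = 0.0868, exact permutation p = 0.125) and 0.45 without that mouse.

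**Figure D5:**
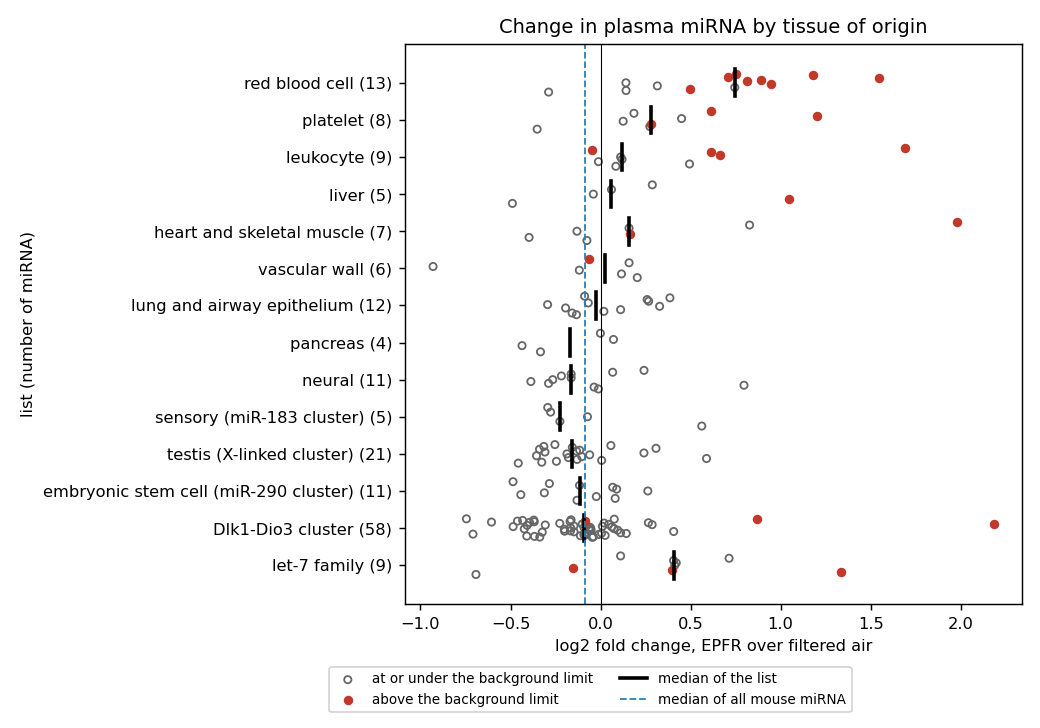
Log2 fold change of EPFR over filtered air (horizontal axis) for every member of the 14 lists by origin or family, with the number of members in parentheses, filled points for miRNA above background, open points for those at or under it, and a bar at the list's median. The red blood cell list has its median at 0.75 and the let-7 family at 0.41, while the lists without a filled point have medians of -0.23 to -0.03 beside -0.09 for all 566 (dashed).

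Ratios of 2 raw counts in the same mouse do not depend on the scaling between mice, and 10 such ratios of related miRNA were compared, pairs that were chosen after their values were seen, a choice that the adjustment over the 10 does not cover. miR-16 over miR-451, both of red blood cells, was higher in EPFR by 0.94 on the log2 scale (SE 0.22, exact permutation p = 0.00109, 0.0109 after adjustment over the 10), as it was in 7 of 8 EPFR mice set against the median of filtered air. let-7i over let-7f was higher by 1.27 (SE 0.34, 8 of 8 mice, exact permutation p = 0.00342, adjusted 0.0171). These 2 pairs had the smallest p of the 10, and both compare members of 1 list.

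miR-1 over miR-133a was higher by 0.72 (SE 0.23, exact permutation p = 0.00839, adjusted 0.0280), with 7 of 8 EPFR mice beyond the median of filtered air. miR-133a read 11 to 19 raw counts in 15 of the 16 mice, all but EPFR mouse 3, so this ratio sets miR-1 against a probe near background. miR-142-3p over miR-142-5p was higher by 1.32 (SE 0.52, exact permutation p = 0.0256, adjusted 0.0445), with medians of -1.79 in filtered air and -0.09 in EPFR. let-7i over let-7g was higher by 0.83 and miR-15a over miR-16 was lower, at -0.85 (exact permutation p of 0.0194 and 0.0267, each adjusted 0.0445). Each count includes the background, near 16.9 counts, which draws the ratio of 2 dim probes toward 1. The ratios of miR-376a over miR-376b, miR-376a over miR-136, miR-144 over miR-451 and miR-221 over miR-222 had adjusted p of 0.0502 to 0.158.

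The 7 miRNA that were lower at an unadjusted p under 0.05 all lay at or under background. miR-221, an endothelial and smooth muscle miRNA, had the smallest edgeR p among them, with scaled counts of 6.02 to 22.1 in filtered air (median 13.3) and 2.90 to 11.9 in EPFR (median 7.92), and 0 of 8 EPFR mice beyond the median of filtered air. Its log2 fold change was -0.93 (SE 0.35, edgeR adjusted p = 0.433, exact permutation p = 0.0232), with -0.95 and -0.91 in the 2 replicate sets. It passed an adjusted p of 0.05 with TMM, positive-control and top 100 scaling, at -0.85, -0.87 and -1.12, and its mean raw count of 10.5 is below that of the negative controls. miR-669i had 9.03 to 34.9 in filtered air (median 24.3) and 10.9 to 21.1 in EPFR (median 13.5), a log2 fold change of -0.78 (SE 0.31, edgeR adjusted p = 0.496, exact permutation p = 0.00886), again with 0 of 8 EPFR mice beyond the median of filtered air. miR-1927 had -0.77 (edgeR adjusted p = 0.72) at a mean raw count of 5.75. The viral probes, which have no target in mouse, had a log2 difference of -0.31 as raw counts over the same mice (exact permutation p = 0.0317, 0.159 after adjustment over the 10 sample measures).

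For the 4 miRNA that rose, the EPFR lo mice, compared with the same filtered air mice, had mean scaled counts between those of filtered air and EPFR. These 4 were picked for being high in EPFR, and in 20 of the 35 miRNA examined by name the EPFR lo mean was above the EPFR mean, as in miR-451 (4940 and 4695), miR-23a (106 and 81.2) and miR-148a (93.6 and 82.6). Those 20 include miRNA that were lower in EPFR, such as miR-221 (14.5 in filtered air, 11.7 in EPFR lo, 7.71 in EPFR) and miR-669i (23.8, 15.3 and 13.6). In miR-221 and miR-669i the EPFR lo mean thus lay between those of filtered air and EPFR. In other miRNA that were lower in EPFR it lay above that of filtered air. Examples are miR-127 (10.0 in filtered air, 10.9 in EPFR lo, 6.01 in EPFR) and let-7f (70.7, 82.5 and 63.5). miR-1 averaged 21.5 ± 8.49, 40.8 ± 17.3 and 83.7 ± 138 in filtered air, EPFR lo and EPFR, and miR-376a averaged 42.6 ± 14.0, 85.3 ± 51.7 and 195 ± 205 (mean ± SD, n = 8 each). miR-142-3p averaged 31.0 ± 18.8, 85.2 ± 38.4 and 100.1 ± 81.4, and let-7i averaged 37.4 ± 21.4, 70.9 ± 17.3 and 94.8 ± 60.1. The log2 differences between EPFR and EPFR lo in these 4 were 0.22 to 1.18 and none passed, with edgeR adjusted p of 0.43 to 0.955. In that comparison 14 of 566 miRNA (2.47%) had an unadjusted p under 0.05 and 1 (0.177%) passed, miR-122, which was lower in EPFR than in EPFR lo by a log2 fold change of -1.33 (edgeR adjusted p = 0.0369).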

How the data were processed

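Plasma RNA of 24 mice was read on the NanoString nCounter mouse panel. The authors deposited raw counts per probe, without scaling, and a normalized signal, which is the raw count less the geometric mean of the negative controls (floor 1), times a positive-control and a housekeeping factor. All 13584 deposited signal values of mouse miRNA lay within 2% of that formula. A deposited table of fold changes and p-values was not used.

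The main test was the quasi-likelihood test of edgeR 4.0.16 in R 4.3.3 on these raw counts, unfiltered and scaled by those factors. The 3 groups of 8 mice entered 1 fit without covariates, and p-values were adjusted by Benjamini-Hochberg over 566 miRNA. For single values, a two-sided exact permutation test shuffled the 16 mice (12870 regroupings, so that p cannot go below 0.000155), taking log2 of the scaled count plus a pseudocount of 1. "Rose" and "fell" mean an adjusted p under 0.05. Alternatives used TMM, positive-control and top 100 scaling, DESeq2 1.42.0, limma 3.58.1 on the deposited signal, replicates 1 to 4 and 5 to 8 as a block or alone, a ligation covariate and each mouse left out. The scripts were tested on simulated data.

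The 14 lists and the members were chosen with earlier results of these data known. The miRNA named are those past the adjusted threshold, the 10 above background with the smallest p, the 10 with the highest counts, up to 3 per list by p and its first member, the 5 lower ones with the smallest p, those the study names, and miR-23a, and a part of these is printed. miR-15b, miR-106b, miR-376b, miR-206, miR-208a, miR-208b, miR-222, miR-665, miR-337-5p, let-7f, let-7g and the probes at 1 count lie outside this rule and were named after their values were seen. Tissue lists come from general knowledge. P-values measure the spread between mice only. Panel names without an arm were matched to the major arm in RefSeq, and overlapping probes of near-identical miRNA cannot be told apart by name.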

Additional observations from a re-analysis of the deposited data

Results flagged for a closer look

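Of 90 groups of 8 mice examined (35 miRNA and 10 sample measures in each group), 14 held a mouse whose gap to the next exceeded the limit of Dixon's test. That limit flags about 1 in 20 where values are normally distributed. The values here were taken without a log, and the miRNA were named partly by their p, so the 14 cannot be set against that rate. EPFR mouse 3 was high in 6 miRNA, with scaled counts of 420.8 for miR-1, 301.2 for miR-125b-5p, 109.8 for miR-133a, 533.9 for miR-22, 71.8 for miR-122 and 98.9 for miR-106b. These include the striated muscle and liver markers, and without this mouse the log2 fold change of miR-125b-5p was 0.45 in place of 1.20. Filtered air mouse 6 was high in 5 miRNA of blood cells and the let-7 family, with 72.2 for miR-142-3p, 87.4 for let-7i, 266.0 for miR-144, 171.0 for miR-15a and 153.9 for miR-15b, and 9 miRNA passed when it was left out. EPFR mouse 6 was high in miR-669i, at 21.1. The negative controls of filtered air mouse 1 were low, at a geometric mean of 10.5, and the ratio of miR-451 to miR-23a was high in EPFR mouse 4, at 120.8.

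miR-122 was lower in EPFR than in EPFR lo, with a log2 fold change of -1.33 (edgeR adjusted p = 0.0369). Its mean scaled count in EPFR (25.4) was near that in filtered air (21.2), and the EPFR lo mean was 65.0. The ligation positive controls, which enter no scaling, read 2.59 times as high in EPFR mice as in those breathing filtered air (exact permutation p = 0.00373).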

How the results depend on the processing

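The count of called miRNA (4) was 6 with TMM, 3 with positive-control scaling, 9 with top 100 scaling, 9 with DESeq2, 0 with limma on the deposited signal (41 at an unadjusted p under 0.05), 6 among above-background miRNA only, 3 over the 16 mice alone, 7 with replicates 1 to 4 and 5 to 8 as a block, 1 in replicates 1 to 4 alone, 3 in replicates 5 to 8 alone, 0 with the ligation covariate and 3 without the 4 mice at the housekeeping floor, an alternative added after seeing the data. It was 2 to 9 with 1 mouse left out, with 9 higher without filtered air mouse 6, 7 without filtered air mouse 8 and 2 without EPFR mouse 8. With positive-control scaling miR-142-3p (adjusted p 0.0641) and let-7i (0.0875) no longer passed and miR-221 fell, as it did with TMM and with top 100 scaling. The other lower calls were miR-337-5p, miR-665 and miR-669i with top 100 scaling and miR-669i with DESeq2. DESeq2 gave no adjusted p for 395 of the 566 miRNA, so its calls are adjusted over fewer miRNA than those of the main fit. The replicate numbers do not pair the mice (correlations of deviations -0.05 to 0.17, 1 of 8 best with its own number). With the replicate number as a block 2 miRNA passed, miR-142-3p at 1.50 and miR-376a at 1.54 (adjusted p 0.0143 each).

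At an unadjusted p under 0.05, 22 were higher and 7 lower. TMM gave 38 and 19, positive-control scaling 18 lower, top 100 scaling 123 lower, DESeq2 38 and 11, above-background miRNA only 13 and 0, the ligation covariate 5 higher, replicates 1 to 4 alone 2 lower, replicates 5 to 8 alone 7 and 11, and the housekeeping-floor alternative 4 lower. With 1 mouse left out the range was 12 to 33 higher and 2 to 30 lower, with 13 higher and 30 lower without filtered air mouse 1 and 12 higher without EPFR mouse 3. Lower counts were 14 without filtered air mouse 3, 3 without filtered air mouse 5, 4 without filtered air mouse 6, 2 without filtered air mouse 8, 3 without EPFR mouse 1, 12 without EPFR mouse 6 and 11 without EPFR mouse 8.

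The abundance difference (0.74) was 0.26 with the ligation covariate and 0.56 to 0.91 in the other fits. List medians minus the median of all moved as follows. With the ligation covariate the red blood cell list had 0.17 (0.83), neural 0.11 (-0.08) and let-7 0.11 (0.49), the unbracketed value being the alternative. Replicates 1 to 4 alone gave red blood cell 1.34, liver 0.44 (0.15), muscle 0.012 (0.24) and sensory 0.14 (-0.14), and replicates 5 to 8 alone gave red blood cell 0.37, liver -0.14, muscle 0.0052 and neural 0.048. limma gave leukocyte 0.67 (0.20). Among above-background miRNA only, red blood cell had 0.21, platelet -0.025 (0.36), Dlk1-Dio3 0.23 (-0.0043) and let-7 -0.24.

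Some log2 fold changes changed sign. miR-126-3p (-0.06) was 0.081 with TMM, 0.055 with positive-control scaling, 0.089 with DESeq2, 0.071 with limma and -0.25 to 0.038 with 1 mouse left out, and its difference of log2 means was -0.028 with a pseudocount of 10. miR-142-5p (-0.05) was 0.0056 with DESeq2, 0.24 with the ligation covariate and -0.15 to 0.041 with 1 mouse left out, and let-7f was -0.29 to 0.0075. miR-1927, miR-127 and miR-665 were each 0.040 with limma. miR-133a, miR-22 and miR-122 were -0.12, -0.0020 and -0.38 in replicates 5 to 8 alone and -0.039 to 0.98, -0.080 to 0.40 and -0.15 to 0.49 with 1 mouse left out. miR-136, miR-486 and miR-223 were -0.035, -0.089 and -0.078 with the ligation covariate. The causes were not tested. Counts of 528 miRNA lie at or under background, where change is understated, and the housekeeping probes that scale the mice lie there too.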
